A study of Mus musculus with 6 samples.

Results

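The class I group of the tripartite motif (TRIM) family was followed in mouse embryonic stem cells through its 6 genes: Mid1, Mid2, Trim9, Trim36, Trim46 and Trim67. All 6 were found by Ensembl identifier among the 43309 genes of the count table, and 5 of them were among the 16823 genes tested. The group was chosen on values of the comparison described here, in which Mid1 stood at the upper end of the fold changes and Trim67 near the lower end. The differences between groups given for these genes are therefore a description, and no p is printed for them.

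Class I TRIM proteins are ubiquitin ligases built from a RING finger, B-boxes and a coiled coil, followed by a COS box, through which they bind microtubules, and by fibronectin and PRY-SPRY domains. MID1, the gene mutated in X-linked Opitz syndrome, uses alpha4 (Igbp1) to reach the catalytic subunit of protein phosphatase 2A, and MID2 is its closest paralog. TRIM9 and TRIM67 act in neurons with the netrin receptor DCC, TRIM36 binds the centromere protein CENPH, and TRIM46 bundles microtubules at the axon initial segment. In laboratory mice Mid1 crosses the boundary of the pseudoautosomal region, so that a part of it has copies on the Y chromosome.

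RNA was prepared from J1 (129SV) cells grown without feeders on gelatin in serum medium, and each library was made from 2 μg of total RNA with the TruSeq Stranded mRNA kit. The control group held 3 clones labelled wild-type with the genotype 2lox/+, which already carry 1 allele of Zbtb24 flanked by loxP sites. The other group held 3 clones labelled Zbtb24 knockout with the genotype 1lox/1lox, where 1lox is the allele left by recombination between loxP sites. Each clone, described as independently derived, gave 1 library, so a group is 3 clones of 1 parental line. ZBTB24 is a zinc finger protein, and its loss causes a form of ICF syndrome, an immunodeficiency with unstable centromeres.

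Library totals lay between 25042261 and 28838924 counted fragments. Zbtb24 counts went against the label, with 510, 512 and 489 fragments in the controls against 888, 925 and 1039 fragments under the knockout label (log2 fold change 0.99, SE 0.05, adjusted p = 4.32e-23 by the quasi-likelihood test of edgeR). Gene counts do not show which exons of Zbtb24 were read, so this value does not check the deletion, and the second group is called labelled knockout throughout. Embryonic stem cell markers were abundant in both groups, with a summed level of 6050 to 6130 cpm (counts scaled to a common library size) in the controls and 7220 to 7290 in those labelled knockout, and 12 of 12 passed the test (9 higher, 3 lower), where 69.5% of all genes tested passed (34.4% higher, 35.2% lower). Klf4 rose by 1.90 and Esrrb by 1.16 on the log2 scale, Zfp42 fell by 0.77 and Lin28a fell by 0.44. Neural and fibroblast markers that passed the test were mostly lower in the libraries labelled knockout. Of 9 neural markers tested, 1 was higher and 6 were lower, and of 8 fibroblast markers tested, 5 were lower and none higher. Among these 5, Col3a1 and Dcn reached the 10 counts needed for a test in the controls alone, so nothing is read from their calls. The 12 neural markers summed to 167 to 170 cpm in the controls and 73.8 to 75.6 cpm in the others, and the 9 fibroblast markers to 62.5 to 64.8 and 14.9 to 15.9 cpm. Most of the neural difference came from Nes, at 95.1 and 19.0 cpm, and most of the fibroblast one from Col1a1, at 41.1 and 3.93 cpm. Sox1, of neural progenitors, rose by 1.23, Neurod1 fell by 1.67 and Col1a2 fell by 3.15. Sox1 and Zfp42 lie on chromosome 8, where the median log2 fold change over 819 tested genes was -0.20. The part of this shift in their values was not tested. Elavl4 at 0.16, Rbfox3 at -0.09, Pdgfra at -0.05, Pdgfrb at -0.16 and Twist1 at -0.28 did not pass, Dcx and Neurog2 were too low to be tested, and Lum had no count. The part of these cells in the results below was not tested, and in bulk RNA fewer cells of a type and less RNA per cell cannot be told apart.

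Mid1 spans chrX:169685199-170005736 on the plus strand of mm10. RefSeq gives it 3 starts on the same build (GRCm38.p6). The 250 bases before each start are shown because Mid1 went from near silence to a high level, with the CpG dinucleotides, the sites of DNA methylation in mammals, in capitals.

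Mid1 start 1, chrX:169684949-169685198, plus strand: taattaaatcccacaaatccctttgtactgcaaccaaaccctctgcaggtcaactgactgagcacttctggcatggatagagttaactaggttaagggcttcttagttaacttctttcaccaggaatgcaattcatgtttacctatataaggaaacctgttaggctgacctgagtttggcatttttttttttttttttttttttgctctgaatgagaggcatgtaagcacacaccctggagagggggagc
Mid1 start 2, chrX:169827909-169828158, plus strand: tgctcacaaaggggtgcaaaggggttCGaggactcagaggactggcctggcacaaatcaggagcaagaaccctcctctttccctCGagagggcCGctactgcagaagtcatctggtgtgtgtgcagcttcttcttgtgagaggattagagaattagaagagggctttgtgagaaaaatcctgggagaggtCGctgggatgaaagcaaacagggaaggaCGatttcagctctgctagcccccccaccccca
Mid1 start 3, chrX:169879369-169879618, plus strand: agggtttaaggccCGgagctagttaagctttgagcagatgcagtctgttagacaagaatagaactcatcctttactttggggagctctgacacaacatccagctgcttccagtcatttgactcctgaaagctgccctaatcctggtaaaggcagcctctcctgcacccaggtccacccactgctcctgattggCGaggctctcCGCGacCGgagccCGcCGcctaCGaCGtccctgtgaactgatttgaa

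The windows held 0, 5 and 9 CpG dinucleotides, against a median of 6 over the 32851 RefSeq windows of this length. None of them overlapped an annotated exon, and gene counts cannot tell which start was used. The window before the start of Trim67 (chr8:124792769-124793018, plus strand) held 21, more than 83.7% of all windows, and the windows of Mid2 and Trim9 held 15 and 16. In Trim46, 3 windows held 9 to 11. The letters CAGGACCT, a motif attributed to ZBTB24, were searched on both strands in windows that also took in the 50 bases after each start. They were absent from the 9 windows of the 5 genes with an entry and present in 1.99% of all windows. These are descriptions of letters in these windows and of nothing outside them.

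Mid1 was close to the lower end of detection in the controls and among the most abundant transcripts in the libraries labelled knockout. It had 36, 53 and 58 fragments in the 3 controls and 17500, 16603 and 18906 in those labelled knockout. The groups lie far apart, and the spread within the second group was small. Scaled by library size, the level was 1.77 ± 0.438 cpm against 671 ± 2.61 cpm (SD, n = 3 each), a log2 fold change of 8.56 (SE 0.0513), or 378-fold. Per kilobase of exon on the same library scale (fpkm), Mid1 rose from 0.264 ± 0.0651 to 99.9 ± 0.388, which moved it from above 14.4% to above 97.4% of the genes tested.

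Trim67, a neuronal ligase that interacts with the actin regulator VASP, showed the opposite pattern. Its counts were 254, 252 and 252 in the controls and 7, 8 and 3 under the knockout label. The controls were nearly equal, and the other group lay close to the limit of detection, where 3 counts correspond to 0.106 to 0.122 cpm depending on the library. The level went from 9.13 ± 0.0857 to 0.233 ± 0.113 cpm, a log2 fold change of -5.29 (SE 0.183), or 39.2-fold lower. Trim67 lies at chr8:124793092-124834713 on the plus strand, and the median log2 fold change over the 819 tested genes of chromosome 8 was -0.20, where that over all genes tested was -0.00.

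Trim36, also known as haprin from its role in the acrosome reaction of sperm, was lower in the libraries labelled knockout. It is annotated on the minus strand of chr18:46165300-46212607. Counts were 313, 267 and 274 against 96, 101 and 149. No library of one group reached the range of the other, and the third library labelled knockout was the highest of its group. The level was 10.3 ± 0.748 cpm against 4.35 ± 0.83 cpm, a log2 fold change of -1.23 (SE 0.0986), or 2.35-fold lower.

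Trim46, at chr3:89234177-89246309 on the minus strand, differed least. Its counts were 261, 215 and 211 in the controls and 171, 169 and 168 in the libraries labelled knockout. On the cpm scale the lowest control lay at 7.69 and the highest of the other libraries at 6.86, so that the groups were close without overlapping. The log2 fold change was -0.36 (SE 0.0906), or 1.28-fold lower, from 8.26 ± 0.881 to 6.45 ± 0.464 cpm.

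Mid2 and Trim9 were at the edge of detection. Mid2, on the plus strand of chrX:140664599-140767715, had 13, 9 and 12 fragments in the controls and 3, 1 and 4 in those labelled knockout (log2 fold change -1.97, SE 0.535). It passed the filter of 10 counts in at least 1 library only through the control group, where it was higher. Trim9, on the minus strand of chr12:70244533-70347614, had 0, 2 and 1 fragments in the controls and 3, 0 and 0 in the others. Since no library exceeded 3 counts, Trim9 was not tested and no fold is given. A transcript of Trim9 at this depth could not be distinguished from none.

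**Figure D1:**
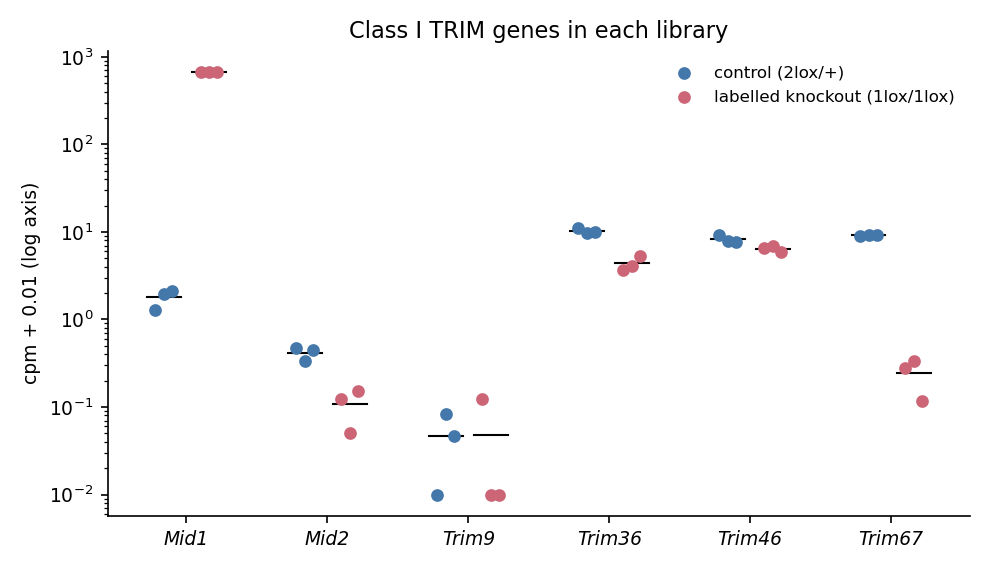
Level (cpm) of each class I TRIM gene in each library, plus 0.01, on a log axis. Points are libraries (3 per group) and lines are group means. The Mid1 libraries labelled knockout sit at 670 to 674 cpm, above every other value, and those of Trim67 below 0.33 cpm.

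Of the 5 genes tested, 1 was called higher and 4 lower at an adjusted p of at most 0.05, and the groups did not overlap for any of the 5. In 4 of them the log2 fold change was at least 1 in size. Among all genes tested, 69.5% were called (34.4% higher and 35.2% lower), 71.5% had groups that did not overlap, and 17.0% were called with a log2 fold change of at least 1 in size. The median log2 fold change over the 5 genes was -1.23. As the genes were chosen on this comparison, nothing is read from these counts.

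The order of the class I genes changed with the level of Mid1. In the controls, the levels per kilobase were 2.18 ± 0.232 fpkm for Trim46, 2.08 ± 0.152 for Trim36 and 1.04 ± 0.0098 for Trim67, followed by Mid1 at 0.264, Mid2 at 0.0504 and Trim9 at 0.00256. Trim46 and Trim36 differed by less than their spread, and the other neighbours in this order did not overlap. In the libraries labelled knockout, Mid1 at 99.9 fpkm was followed by Trim46 at 1.70 ± 0.122, Trim36 at 0.882 ± 0.168, Trim67 at 0.0267 ± 0.013, Mid2 at 0.0122 ± 0.00645 and Trim9 at 0.0027 ± 0.00467. There the ranges of Trim67 and Mid2 overlapped, as did those of Mid2 and Trim9.

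Expressed as a share of the summed class I level, Mid1 made up 3.18%, 5.30% and 5.75% in the controls and 97.5%, 97.4% and 97.4% in the libraries labelled knockout. Trim46 went from 38.7% ± 1.99 to 1.66% ± 0.114, Trim36 from 37.0% ± 0.663 to 0.861% ± 0.165 and Trim67 from 18.6% ± 1.17 to 0.026% ± 0.0126. The shares of the other genes were pressed down by the level of Mid1 itself. With Mid1 left out, the summed level was 5.36 ± 0.375 fpkm in the controls and 2.63 ± 0.0879 fpkm in the others, or 2.04-fold lower. With Mid1 included, the sum was 5.62 ± 0.312 and 103 ± 0.439 fpkm, 18.2-fold higher.

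**Figure D2:**
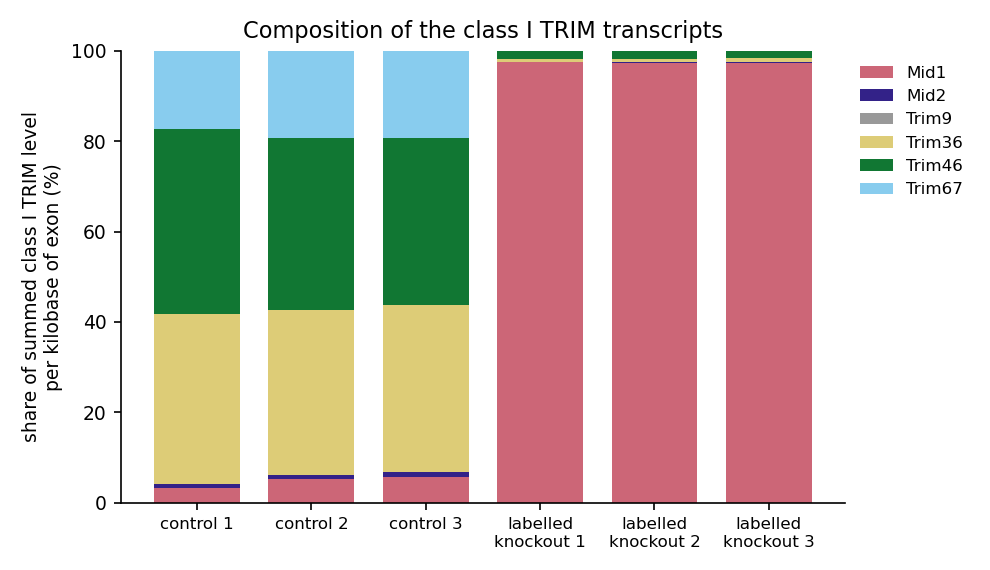
Share of each class I TRIM gene in their summed level per kilobase of exon, in percent, for each of the 6 libraries. Trim46, Trim36 and Trim67 make up most of each control bar, and Mid1 takes 97.4% to 97.5% of each bar labelled knockout.

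How far the Mid1 count is its own depends on its copies, because fragments that mapped to more than 1 place were discarded. The annotated Mid1 transcripts hold 7062 different windows of 76 bases, the length of a read. Of these, 955 (13.5%) also occurred in a transcript of another gene on the same strand, in every case in the pseudogene Mid1-ps1 (chrY:90753057-90763485, plus strand). A second Y pseudogene, Gm21742, shared 314 of the windows. In the transcript Mid1-201 of 3753 bases, 880 of 3678 windows (23.9%) were found in Mid1-ps1, with starts between bases 880 and 2091, so that both ends of the transcript were free of them. The other class I genes shared less than 1% of their windows with same-strand transcripts, the highest being Trim67 at 0.744% through Gm16163, which had 1 to 6 counts in each library. The genome itself was not searched.

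**Figure D3:**
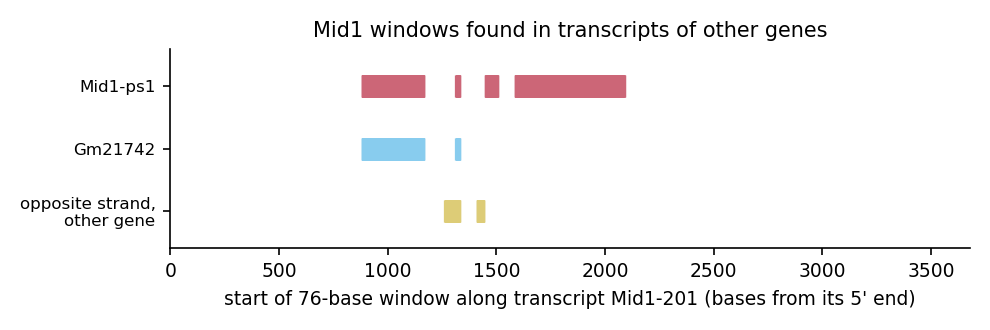
Position along the transcript Mid1-201 of the 76-base windows that occur in transcripts of other genes, by gene. The x axis is the start of a window in bases from the 5′ end. The 880 windows shared with Mid1-ps1 start between bases 880 and 2091, and none lies outside this stretch.

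Mid1-ps1 followed Mid1. It had no fragment in the 3 controls and 1058, 965 and 1103 in the libraries labelled knockout, at least a 365-fold difference with 3 counts per library put in for the controls. For each 100 Mid1 fragments there were 6.05, 5.81 and 5.83 of Mid1-ps1 in the libraries labelled knockout. In the controls, 0 were seen beside 147 Mid1 fragments. Putting in 3 counts per library would give 6.12 for each 100, which is a wide limit. Whether this ratio differed between the groups was not tested. Gm21742 had 1 fragment in all. Genes of the Y chromosome outside the pseudoautosomal part went the other way. All 7 tested of the 8 Y-linked marker genes were lower, with a summed level of 240 to 248 cpm in the controls and 133 cpm in each library labelled knockout (35.2% of all genes tested were lower). Among them Zfy1, a zinc finger gene, fell by 2.34 (adjusted p = 9.82e-21 by edgeR) and Kdm5d, a histone demethylase gene, by 1.15 on the log2 scale (adjusted p = 1.97e-12 by edgeR). Usp9y and Zfy2, also among the 7, passed the filter on low counts through the controls alone, so nothing is read from their calls. Sry, the last of the 8, had no count in any library. The part of these Y-linked values in the Mid1 result was not tested.

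On the strand opposite to Mid1, 3 annotated non-coding genes within its bounds were higher too. G530011O06Rik had 41, 23 and 23 fragments in the controls and 182, 147 and 182 in the libraries labelled knockout (log2 fold change 2.62, SE 0.149, adjusted p = 4.68e-21 by edgeR). Gm15726 went from 2, 2 and 1 to 42, 35 and 36 fragments, or 23.8-fold from fragments summed per group and scaled by library size. Gm15247 went from 2, 4 and 1 to 33, 27 and 32 (log2 fold change 3.72, SE 0.405). Gm15726 and Gm15247 passed the filter on low counts through the libraries labelled knockout alone, and no test is given for them. Without the second control, Gm15247 was at 4.32. Groups did not overlap for any of the 3. They overlap exons of Mid1, and 916 Mid1 windows occur in them in reverse. Their summed counts amounted to 1.26 to 1.47 for each 100 Mid1 fragments in the libraries labelled knockout and to 43.1 to 125 in the controls, and whether some of these fragments came from Mid1 was not tested. Opposite Trim46 lies Krtcap2, a subunit gene of the oligosaccharyltransferase, with a log2 fold change of 0.01 (adjusted p = 0.865 by edgeR).

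The genes next to Mid1 differed far less than Mid1. Among the nearest tested genes, Gm21887, 3.92 kb beyond its 3′ end and the only one on that side, had 30, 45 and 36 fragments in the controls and 130, 142 and 138 in the others (log2 fold change 1.96, SE 0.144, adjusted p = 7.55e-17 by edgeR). On the other side, 365 kb away, Hccs, a holocytochrome c synthase gene, had a log2 fold change of 0.21 (adjusted p = 7.71e-06 by edgeR). Nearer to Mid1, the non-coding Gm15246 rose by 0.84 (adjusted p = 0.00503 by edgeR), and BC022960 was at -0.08 (adjusted p = 0.675 by edgeR). The Y gene Gm47283, named after its values were seen because it lies beside Mid1-ps1, had 617, 688 and 742 fragments in the controls and 2639, 2394 and 2700 in the libraries labelled knockout (log2 fold change 1.99, SE 0.043). Over the 573 tested genes of the X chromosome, the median log2 fold change was 0.01.

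Next to Trim67 the differences were small as well. Fam89a, 41.3 kb before it, fell by 0.63 on the log2 scale (adjusted p = 5.99e-04 by edgeR). Ttc13 fell by 0.25, Exoc8, an exocyst subunit gene, by 0.19, Gnpat, of ether lipid synthesis, by 0.17 and Arv1, of sterol transport, by 0.16 (adjusted p = 0.0137 by edgeR for Arv1, the highest of these). The falls of Ttc13, Exoc8, Gnpat and Arv1 lay near the median of chromosome 8, which was -0.20 over 819 genes. The part of this shift in their values was not tested. 2810004N23Rik, 2.23 kb beyond Trim67, was at -0.00 (adjusted p = 0.939 by edgeR). The call for Arv1 was lost with DESeq2 (adjusted p = 0.071) and without the third library labelled knockout (adjusted p = 0.133 by edgeR).

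Beside Trim46, both neighbours with a large difference were lower. Muc1, the gene of a membrane mucin 0.796 kb away, and Thbs3, a thrombospondin gene 7.34 kb away, each fell by 1.43 on the log2 scale (adjusted p = 2.21e-13 and 1.39e-27 by edgeR), while Mtx1, which overlaps Thbs3, was at 0.03 (adjusted p = 0.35 by edgeR). Over the 34 nearest tested genes of the 6 class I genes, 13 were higher, 13 lower and 8 did not pass the test, which is 76.5% called beside 69.5% of all genes. Besides Muc1 and Thbs3, only Gm21887 among them had a call with a log2 fold change of at least 1 in size.

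**Figure D4:**
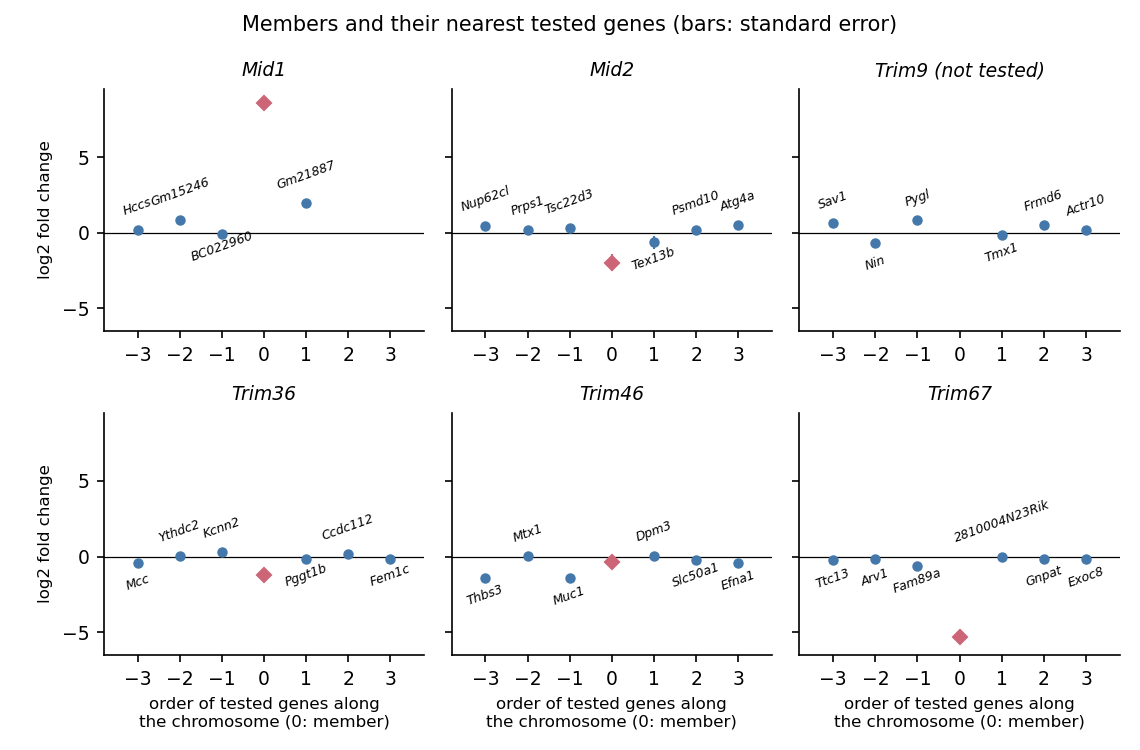
Log2 fold change (labelled knockout minus control) of each class I TRIM gene tested (diamonds) and of the 3 nearest tested genes on each side (circles), in their order along the chromosome. Bars are standard errors. Mid1 at 8.56 and Trim67 at -5.29 stand apart from their neighbours, which lie between -0.63 and 1.96. Mid1 has 1 tested neighbour on the right.

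The rest of the TRIM family was compared to show where the class I genes lie in it. Of 64 other TRIM genes in the table, 48 were tested, of which 11 were higher, 22 lower and 15 did not pass the test (68.8% called, beside 69.5% of all genes), and 13 were called with a log2 fold change of at least 1 in size. Their median log2 fold change was -0.26. Among the 13, Trim30a, Trim34b and Trim43c passed the filter on low counts through the controls alone, and Trim12a through the other libraries alone. The fold changes of Mid1 and Trim67 lay outside the range of the other TRIM genes on either side, a position that the choice of the group used. The next highest was Trim12a, with 5, 7 and 5 fragments in the controls and 42, 31 and 48 in the others (log2 fold change 2.88, SE 0.304), and Trim34a followed with 1.18 (adjusted p = 1.98e-08 by edgeR). Trim12a passed the filter on low counts through the libraries labelled knockout alone, and no test is given for it. The next lowest were Trim43a, with 156, 142 and 151 fragments against 9, 12 and 4 (-4.07, SE 0.201, adjusted p = 1.83e-23 by edgeR), and, where the mean reached 20 counts, Trim43b with -2.55 (adjusted p = 1.75e-13 by edgeR). These 4 belong to clusters of similar copies, so the split of fragments between copies is uncertain. Trim28, the corepressor of endogenous retroviruses in these cells and the most abundant of the family, was at 2390 and 2400 cpm with a log2 fold change of 0.01.

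**Figure D5:**
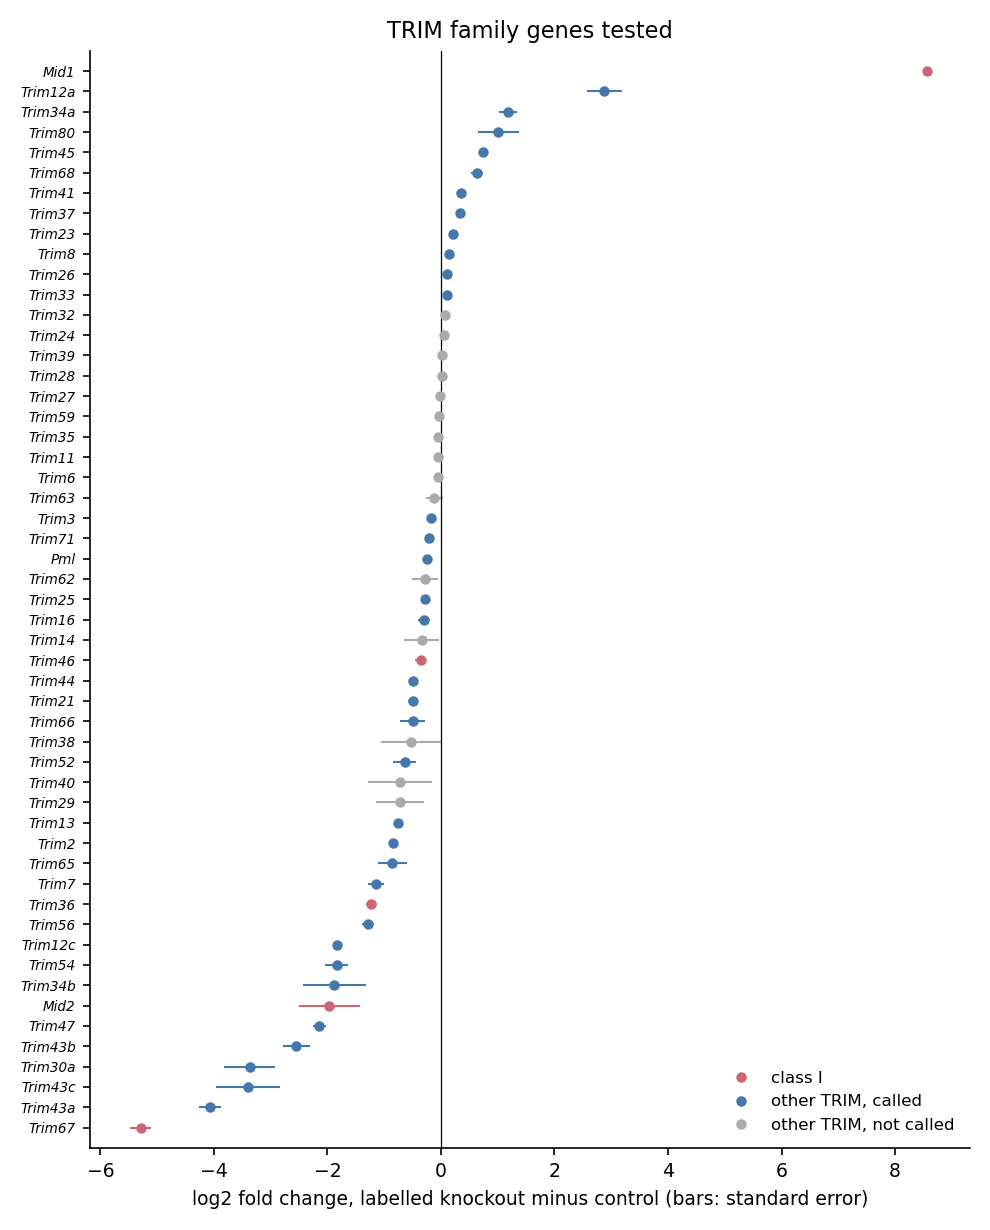
Log2 fold change (labelled knockout minus control) with its standard error for the 5 class I TRIM genes tested and the 48 other TRIM genes tested, in order of size. Mid1 at 8.56 is the highest point and Trim67 at -5.29 the lowest, and the other TRIM genes lie between -4.07 and 2.88.

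Genes that share the COS box with class I had smaller log2 fold changes than Mid1 and Trim67. Of 5 such genes, 4 were tested, and 1 was higher, 2 were lower and 1 did not pass the test, where 69.5% of all genes passed. Trim54, a muscle RING finger gene, had 60, 65 and 76 fragments in the controls and 15, 12 and 26 in the others (log2 fold change -1.84, SE 0.21, adjusted p = 8.52e-11 by edgeR). Fsd1l fell by 0.67 (adjusted p = 5.66e-16 by edgeR), and Fsd1, whose product binds microtubules, rose by 0.19 (adjusted p = 4.68e-04 by edgeR). Trim63, another muscle ring finger gene, was at -0.12 (adjusted p = 0.477 by edgeR), and Trim55 had no count.

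Genes linked to MID1 had log2 fold changes under 1 in size. A list of 17 genes, most of them of the alpha4, protein phosphatase 2A and mTORC1 pathway, also held Stk36, Gli3, Rack1 and Mid1ip1. Of the 17 genes, 16 were tested, of which 4 were higher and 7 lower (68.8% called, beside 69.5% of all genes). None was called with a log2 fold change of at least 1 in size, against 17.0% of all genes. Mtor, the kinase of the complex, rose by 0.46 (adjusted p = 1.60e-18 by edgeR) and its substrate gene Rps6kb1 by 0.17 (adjusted p = 3.66e-07 by edgeR). Ppp2cb, a catalytic subunit gene of the phosphatase, fell by 0.71 (adjusted p = 2.59e-27 by edgeR), and Mid1ip1, whose product binds MID1, by 0.79 (adjusted p = 5.21e-15 by edgeR). The other catalytic subunit gene, Ppp2ca, was at 0.01 (adjusted p = 0.843 by edgeR), and Igbp1, which encodes alpha4, fell by 0.16 (adjusted p = 2.77e-05 by edgeR). Ppp2cb lies on chromosome 8, where the median log2 fold change over 819 tested genes was -0.20. The part of this shift in its value was not tested.

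Netrin receptor and actin genes around TRIM9 and TRIM67 gave calls in both directions. All 10 tested of the 13 in the table passed, 5 higher and 5 lower, where 34.4% and 35.2% of all genes did. The 5 lower include Dcc, which reached the counts needed for a test in the controls alone, so nothing is read from its call. Unc5b, a repulsive netrin receptor gene, had 2395, 2334 and 2336 fragments in the controls and 487, 488 and 584 in the others (log2 fold change -2.11, SE 0.0409, adjusted p = 4.11e-40 by edgeR), and Evl, a relative of VASP, fell by 0.78 (adjusted p = 3.31e-19 by edgeR). Snap25, a vesicle fusion gene whose product binds TRIM9, rose by 1.14 (adjusted p = 1.42e-04 by edgeR) from 8 to 21 fragments per library to 32 to 37, and the kinesin gene Kif21b by 0.66 (adjusted p = 1.70e-14 by edgeR). Kif21b lies on chromosome 1, where the median log2 fold change over 980 tested genes was 0.50, and the part of this shift was not tested. Dcc, named after its values were seen, had 24, 19 and 19 fragments against 2, 3 and 2. From fragments summed per group and scaled by library size, this was 8.42-fold lower. It passed the filter on low counts through the control group alone, and no test is given.

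Among 24 genes of microtubules and the axon initial segment, where the class I proteins act, 14 were higher, 5 lower and 5 did not pass the test (79.2% called, beside 69.5% of all genes). Mapt, which encodes tau, rose by 1.86 (adjusted p = 1.12e-33 by edgeR), and Camsap2, which protects microtubule minus ends, by 0.71 (adjusted p = 2.00e-23 by edgeR). Its relative Camsap3 fell by 1.20 (adjusted p = 3.93e-34 by edgeR). Camsap2 lies on chromosome 1, where the median log2 fold change over 980 tested genes was 0.50. Camsap3 lies on chromosome 8, where the median over 819 tested genes was -0.20. The part of these shifts in the values of Camsap2 and Camsap3 was not tested. Stmn4, a stathmin gene of neurons, had 58, 61 and 48 fragments in the controls and 1, 2 and 4 in the others (log2 fold change -4.43, SE 0.343). It passed the filter on low counts through the control group alone, and no test is given for it, though it is counted among the 5 lower. Cenph, the gene of the TRIM36 partner, was at 0.00 (adjusted p = 0.959 by edgeR).

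For each class I gene, the 2 tested genes nearest in pattern were taken by the Euclidean distance between centred log2(cpm + 1) values over the 6 libraries. Mid1 had no close match. Mid1-ps1 was nearest, at a distance of 3.19, and Tpm3-rs7, a tropomyosin gene copy with a log2 fold change of 4.91, lay at 4.15. Trim67 was nearest to Cldn7, a tight junction gene, and Krt19, a keratin gene, at distances of 0.19 and 0.198. These had log2 fold changes of -3.44 and -3.21 from higher levels, since the added 1 shortens the scale for low genes. Trim36 lay nearest to Gm14058 and Lrrk2 (0.129 and 0.152), Trim46 to Zfp846 and Vax2os (0.0759 and 0.0828), Mid2 to Zfp97 and Foxn2 (0.0444 and 0.0549) and Trim9 to Abcg1 and Abhd8 (0.00744 and 0.0408). The short distances of Mid2 and Trim9 reflect values near 0 on this scale.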

How the data were processed

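Sequencing of pairs of 76 bp reads gave the deposited counts of fragments per gene. According to their methods and processing notes, the authors used CASAVA 1.8.2 for base calls, removed rRNA reads with Bowtie2 2.1.0, mapped with TopHat2 2.0.10 to mm10 and counted GENCODE M4 genes with HTSeq 0.6.1 in union mode by strand. Antisense fragments and those assigned to several genes or places were left out, which lowers genes with close copies. The deposited raw counts were neither filtered nor normalized. Without molecular identifiers, PCR duplicates cannot be told from separate molecules, so limits taken from 3 counts cover counting error alone.

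Symbols and exons came from GENCODE M21 on mm10, which matched 42425 of 43309 identifiers. The 16823 genes that reached 10 counts in 1 library or more were tested in R 4.3.3 with edgeR 4.0.16 (TMM, glmQLFit and glmQLFTest, no covariate), and Benjamini-Hochberg adjusted p-values of at most 0.05 over all of them were called. SE is the size of the log2 fold change over the square root of F. The test was tried on simulated counts. Cpm (the cpm function of edgeR) and fpkm used TMM-scaled totals, and fpkm the union of annotated exons. Shared windows were sought in the M21 transcripts, and RefSeq windows in GRCm38.p6.

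Libraries were grouped by their genotype labels. The clones are described as biological replicates, so each counted as 1 sample. No pair within a group agreed within sampling noise (chi-square per gene 1.14 to 2.24, lowest for controls 2 and 3). This cannot tell separate clones from separate preparations of the same cells, so the spread within groups may be partly technical. The genes followed and every list were chosen with earlier results of these data known. Genes named besides the 6 were Zbtb24, Mid1-ps1, the neighbours of Mid1 and Trim67, other neighbours called with a log2 fold change of at least 1 in size, the 2 largest rises and falls per list among calls with a mean of at least 20 counts and no overlap, and the 2 nearest patterns. Some genes overlapping the 6, some list members that did not pass or were too low, Trim28, Igbp1, Ppp2ca, Cenph, Mtx1, Gm21742, Gm47283 and Dcc were named in addition, the last 2 without a test. Gm15726, Gm15247, Trim12a and Stmn4 are also given without a test. Alternatives were DESeq2 1.42.0, the likelihood ratio test, other scalings, filters and lengths, the replicate number as a block, and leaving out each library.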

Additional observations from a re-analysis of the deposited data

How the results depend on the processing

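The 5 class I genes tested kept their direction and their call under every alternative that tested them. A minimum log2 fold change of 1 in size left 4 of them, without Trim46. With filterByExpr, 4 were tested and 4 called, because Mid2 did not pass that filter. Over all alternatives the log2 fold change ranged from 8.37 to 8.71 for Mid1, -5.60 to -4.92 for Trim67, -1.40 to -1.12 for Trim36, -0.41 to -0.27 for Trim46 and -2.31 to -1.63 for Mid2. Among the other named genes, the calls of Arv1 (2 alternatives) and Vax2os (3 alternatives) were lost, and no call changed sign. The calls over all genes numbered 11697 in the fit reported and 10326 with DESeq2, 11829 with the likelihood ratio test, 11637 with library totals, 12073 without the filter and 11059 to 11304 with 1 library left out.

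With a minimum log2 fold change of 1 in size, 13 other TRIM genes, 1 COS box relative and 0 genes of the MID1 list were called. So were 3 netrin and DCC genes, 4 microtubule genes and 3 neighbours. The lower numbers follow from the construction of the limit. Among these calls, Dcc, Stmn4, Trim12a, Trim30a, Trim34b and Trim43c passed the filter on low counts through 1 group alone. With the 5 nearest tested genes on each side in place of 3, 42 of 56 neighbours were called. With the length of the longest transcript in place of all exons, the shares in the summed class I level were 7.08% and 98.3% for Mid1 in the controls and in the libraries labelled knockout, 35.5% and 0.557% for Trim36, 16.4% for Trim67 and 0.123% for Trim9 in the controls, and 1.15% for Trim46 in the libraries labelled knockout.

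The replicate numbers in the sample names were used as a block in an added fit, which called 11801 genes and all 5 class I genes tested. The deviations of same-numbered libraries correlated by 0.0133, 0.0402 and 0.0162, under 0.1, so the numbers were not taken as pairs. Each control correlated best with the library of its own number, as a hint from the data and not from the design. Depth limits Trim9 and Mid2, whose counts do not exceed 13 in any library.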
